A study of Sus scrofa with 20 samples.

Results

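The 10 genes described here encode the carriers that move bile acids and biliary lipids across the membranes of hepatocytes, bile duct cells and ileal enterocytes. They were chosen by name, not by their values, and are SLC10A1, SLC10A2, SLC51A, SLC51B, ABCB4, ABCB11, ABCC2, ABCC3, ABCG5 and ABCG8. All 10 had a row among the 25764 genes of the deposited table. 9 of them, all but SLC10A2, reached the minimum of 10 normalized counts in at least 2 libraries and were tested with the other genes that did, 15576 in all.

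The study compared stem and progenitor cells of the pig biliary tree with human biliary tree and liver cells, and mapped their niches in pig tissue. It states that non-parenchymal cells of pig liver were excluded from its RNA-seq data, and it does not report the comparisons with sorted pig liver cells given below. RNA was sequenced from 5 preparations of porcine biliary tree stem cells (pBTSCs), labelled as gallbladder, and from 15 preparations of liver cells sorted by surface proteins. The liver sorts were CD45-/EpCAM+ (4 libraries), CD45-/EpCAM- (2), CD45+ (5), CD31+ (2) and CD146+ (2). CD45 marks leukocytes, EpCAM epithelial cells and CD31 endothelial cells. CD146 is found on endothelial cells, and the study's methods list it on precursors of stellate cells. The pBTSCs came from newborn piglets, 1 animal for each library. Those of the libraries titled S2, S7 and S11 came from piglets carrying H2B-GFP, a histone fused to green fluorescent protein and made in all cells from the ACTB locus, and those of S15 and S20 from wild-type piglets. The study's methods describe hepatocytes from neonatal pig livers, but do not say which animal, of which age and genotype, each sorted liver library came from, and no treatment is named for any library. Libraries are called by their titles below.

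Bile acids are made from cholesterol in hepatocytes and circulate between liver and intestine. Hepatocytes take them up from sinusoidal blood through SLC10A1 (NTCP) and pump them into the canaliculus, the beginning of the bile duct system, through ABCB11 (BSEP). Phospholipid follows through ABCB4 (MDR3), sterols through the pair ABCG5 and ABCG8, and conjugated organic anions such as bilirubin glucuronide through ABCC2 (MRP2). SLC10A2 (ASBT) takes bile acids up at the apical side of ileal enterocytes and cholangiocytes, and the pair SLC51A and SLC51B (OSTα and OSTβ) and the pump ABCC3 (MRP3) let them out at the basolateral side.

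Depth was estimated from the value that 1 read takes in each library. 17 libraries had from 21200000 to 77800000 reads, and 3 had fewer than 2000000: S15 of the pBTSCs, S13 of the CD45-/EpCAM+ cells and S22 of the CD146+ cells. The level that 3 reads give, used here as the floor, was at most 4.28 normalized counts in the 17 deeper libraries but 37.7 in S15, 77.1 in S13 and 156 in S22. PTPRC, which encodes CD45, did not separate the sorts, at 424 to 2687 normalized counts in the CD45+ libraries and 450 to 3027 in the CD45-/EpCAM+ libraries. EPCAM was at 1205 to 1779 in CD45-/EpCAM+ cells, at 491 to 1090 in CD45-/EpCAM- cells and at 884 to 2075 in pBTSCs. It was at 1175 to 2232 in the CD45+ libraries, 1155 to 1161 in the CD31+ libraries and 1032 to 1052 in the CD146+ libraries. PECAM1, which encodes CD31, was at 20102 to 25291 in the CD31+ libraries and at 12940 to 26682 in the CD45+ libraries. It was at 28048 to 36576 in pBTSCs and at 4803 to 8413 in the CD45-/EpCAM- libraries. The summed level of 7 cholangiocyte markers was 14108 to 19154 in pBTSCs and 4438 to 16678 in the liver libraries. The summed level of 8 hepatocyte markers was between 932781 and 2604970 in the liver libraries of every sort, CD45+, CD31+ and CD146+ sorts included. It was between 26184 and 70289 in pBTSCs, where APOA1 alone held 22643 to 27517. The summed level of 5 mesenchymal markers was 348486 to 1354820 in pBTSCs and 32435 to 154638 in the liver libraries.

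Against CD45-/EpCAM+ liver cells, 7 of the 9 transporters tested were lower in pBTSCs and none was higher. The uptake carrier SLC10A1, the canalicular pumps ABCB11 and ABCB4 and the sterol pair ABCG5 and ABCG8 had log2 fold changes between -8.42 and -7.27, and those of ABCC2 and SLC51B were nearer to 0. ABCC3 and SLC51A did not pass the test. Of all genes tested, 10.3% were called lower and 14.8% higher in this comparison, a call being a Benjamini-Hochberg adjusted p under 0.05 in limma with an absolute log2 fold change above 1. The median log2 fold change of the 9 transporters was -7.27 and that of all genes 0.08.

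**Figure D1:**
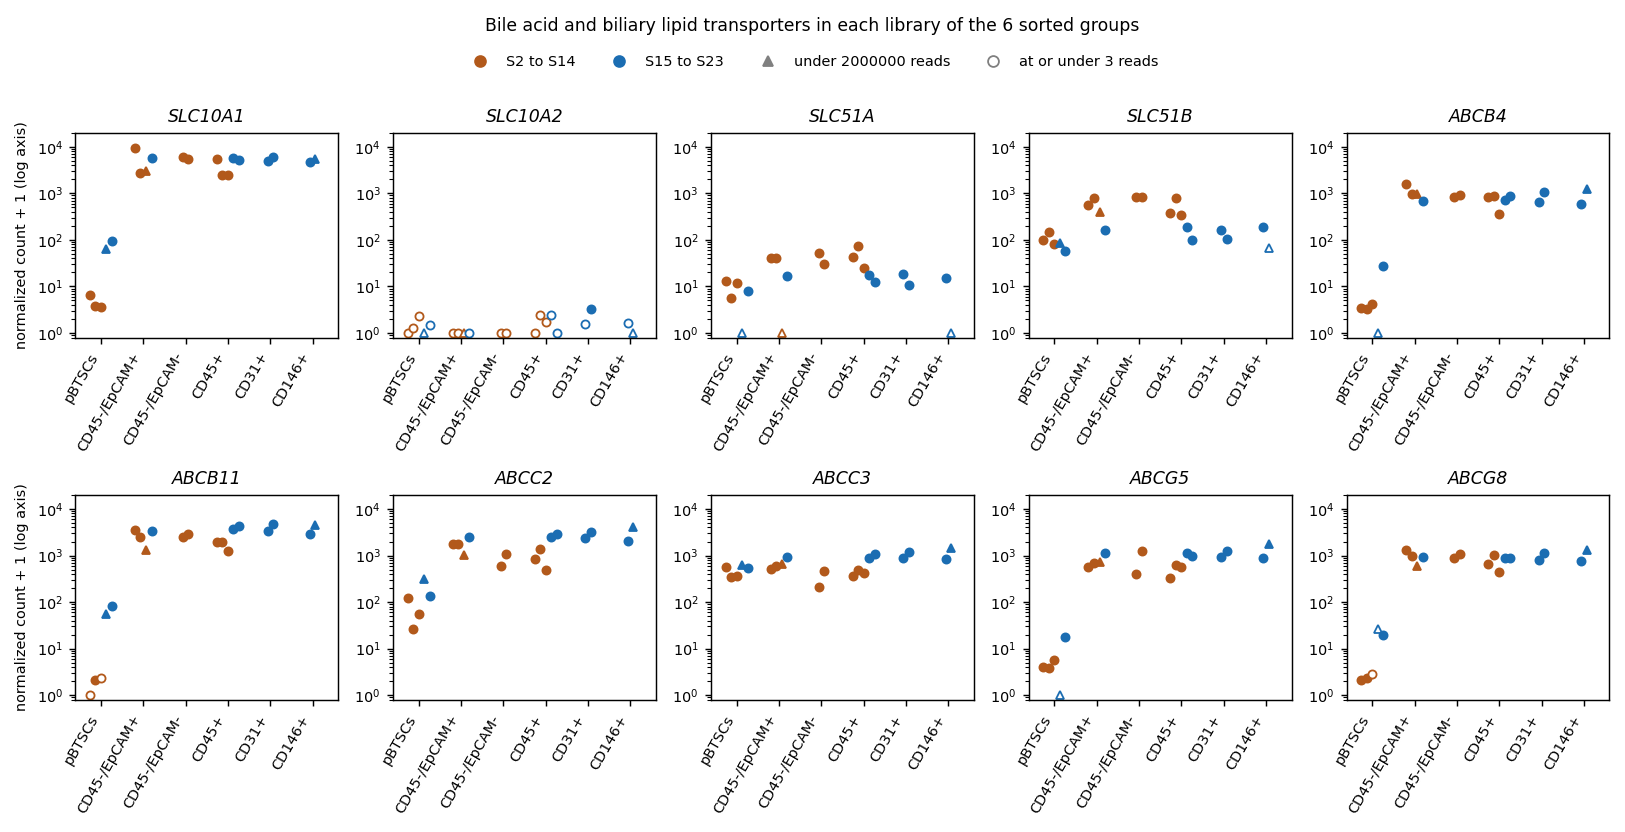
Normalized count + 1 (log axis) of each transporter in each of the 20 libraries, by sorted group. Orange points are libraries titled S2 to S14 and blue points S15 to S23, triangles are the 3 libraries under 2000000 reads, and open symbols lie at or under 3 reads. For SLC10A1, ABCB4, ABCB11, ABCC2, ABCG5 and ABCG8 all 5 pBTSC points lie under all 15 liver points.

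SLC10A1, the sinusoidal uptake carrier, was at 5.67 normalized counts in S2, 2.84 in S7, 2.54 in S11, 62.8 in S15 and 93.9 in S20 among the pBTSCs. In the 15 liver libraries its lowest, median and highest values were 2422, 5363 and 9206. The groups did not overlap, and within the pBTSCs the wild-type libraries S15 and S20 stood above the 3 H2B-GFP libraries. The value of S15 rested on about 5 reads. The level in pBTSCs was lower than in CD45-/EpCAM+ cells by a log2 fold change of -8.35 (SE 0.81, limma adjusted p = 5.1e-07), and against the other 4 sorts the log2 fold change lay between -8.65 and -8.14.

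SLC10A2, the apical carrier of ileum and cholangiocytes, was at 0 to 1.27 normalized counts in pBTSCs and at 0 to 2.29 in the liver libraries. These values amount to at most 3 reads in any library. 19 of the 20 libraries were at or under the floor and the exception, S21 of the CD31+ cells, was just above it at 2.29, so SLC10A2 was not tested and no difference was detectable at this depth.

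ABCB11, the bile salt export pump, was listed at 0 in S2 and was at 1.11 in S7, 1.37 in S11, 53.5 in S15 and 81.6 in S20. In liver cells the lowest value was 1274, the median 2876 and the highest 4818. As for SLC10A1, S15 and S20 were the highest pBTSC libraries and the groups did not overlap. The log2 fold change against CD45-/EpCAM+ cells was -8.42 (SE 1.01, limma adjusted p = 5.2e-06), the farthest from 0 of the 9 transporters, and those against the other sorts lay between -9.09 and -8.33.

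ABCB4, the phospholipid translocator, was at 2.5 in S2, 2.22 in S7, 3.18 in S11, 0 in S15 and 26.9 in S20, against 362 to 1555 with a median of 860 in the liver libraries. The 0 in S15 allows a level of up to 37.7 at that depth, which covers counting error only. The log2 fold change against CD45-/EpCAM+ cells was -7.89 (SE 0.63, limma adjusted p = 8.1e-08). Here too pBTSCs and liver libraries were fully separated.

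The sterol half-transporters ABCG5 and ABCG8 work only as a pair, and their genes are neighbours in the RefSeq annotation of the pig assembly Sscrofa11.1. ABCG5 was at 3.01, 2.93, 4.82, 0 and 17.1 normalized counts in S2, S7, S11, S15 and S20, and ABCG8 at 1.13, 1.29, 1.91, 25.1 and 18.2. The liver libraries held 330 to 1754 of ABCG5 and 447 to 1308 of ABCG8. Both genes were far under every liver library in all 5 pBTSC preparations, and the opposite positions of S15, at 0 for ABCG5 and highest for ABCG8, rest on 0 and 2 reads. The log2 fold changes against CD45-/EpCAM+ cells were -7.43 (SE 0.61, limma adjusted p = 9.7e-08) for ABCG5 and -7.27 (SE 0.63, limma adjusted p = 1.7e-07) for ABCG8.

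ABCC2, the apical pump for conjugated anions, kept a higher share of its liver level. It was at 121 in S2, 25.6 in S7, 54.7 in S11, 314 in S15 and 137 in S20, and at 485 to 4018 with a median of 1800 in the liver libraries. The 5 pBTSC values were 1.42% to 17.4% of the liver median, while those of ABCB11 were at most 2.84% and those of SLC10A1 at most 1.75%. The groups did not overlap, and the log2 fold change against CD45-/EpCAM+ cells was -4.14 (SE 0.61, limma adjusted p = 4.3e-05).

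For these 6 genes, SLC10A1, ABCB4, ABCB11, ABCC2, ABCG5 and ABCG8, every pBTSC library lay under every liver library, which held for 9.21% of all genes tested. All 6 were called lower against each of the 5 liver sorts, where 10.3% (CD45-/EpCAM+), 16.6% (CD45-/EpCAM-), 9.54% (CD45+), 7.62% (CD31+) and 7.75% (CD146+) of genes tested were called lower. With SLC51B as the seventh against CD45-/EpCAM+, CD45-/EpCAM- and CD45+ cells and ABCC3 as the seventh against CD146+ cells, 7, 7, 7, 6 and 7 transporters were lower in the same order of sorts and none was higher. These 5 comparisons share the pBTSC libraries, so they are not independent of each other. The 6 calls held under every alternative processing that was run.

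The exporters ABCC3, SLC51B and SLC51A differed from this pattern, as their pBTSC and liver libraries overlapped. ABCC3, which exports bile acid conjugates and glucuronides to the blood side, was at 557 in S2, 351 in S7, 354 in S11, 640 in S15 and 547 in S20. In liver cells the lowest value was 212, the median 668 and the highest 1461, so all 5 pBTSC libraries lay inside the liver range, at 52.5% to 95.8% of its median. The log2 fold change against CD45-/EpCAM+ cells was -0.48 (SE 0.33, limma adjusted p = 0.269), with a 95% confidence interval from -1.17 to 0.22, and against CD45+ cells it was -0.33 (SE 0.31, limma adjusted p = 0.454). Against CD146+ cells ABCC3 was called lower at -1.23 (SE 0.41, limma adjusted p = 0.0337), a call that was lost without the shallow library S22 (-0.84, limma adjusted p = 0.473), and against CD45-/EpCAM- cells the log2 fold change was 0.60 (SE 0.41, limma adjusted p = 0.234) but was called, at 1.08, when the libraries were scaled to equal totals. Against CD31+ cells it was -1.12 (SE 0.41, limma adjusted p = 0.0734), and it was called when those 2 groups were fitted alone (limma adjusted p = 0.0177). The call against CD146+ cells was also lost without S7 or S11, at -1.12 in both cases (limma adjusted p = 0.0668 and 0.0669). It was lost as well with equal totals (-0.95, limma adjusted p = 0.0972) and with weights for the libraries (-1.32, limma adjusted p = 0.281). With these weights the difference from CD31+ cells was called (-1.21, limma adjusted p = 0.0016).

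SLC51B, the regulatory chain of the heteromeric bile acid exporter, was at 101 in S2, 149 in S7, 80.8 in S11, 82.8 in S15 and 56.1 in S20, and at 64.6 to 828 in the liver libraries. It was lower in pBTSCs than in CD45-/EpCAM+ cells by a log2 fold change of -2.18 (SE 0.54, limma adjusted p = 0.00384), than in CD45-/EpCAM- cells by -3.19 (limma adjusted p = 9.2e-04) and than in CD45+ cells by -1.67 (limma adjusted p = 0.0167). The last call was lost without the CD45+ library S8, at -1.30 (limma adjusted p = 0.0540). Against CD31+ and CD146+ cells the log2 fold changes were -0.53 and -0.32 and did not pass (limma adjusted p = 0.686 and 0.765). The value of 64.6 in S22 lies under that library's floor.

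SLC51A, the transporting chain, had about 13 to 98 reads in the 17 deeper libraries and 0 in the 3 shallow ones. It was at 11.8 in S2, 4.65 in S7, 10.8 in S11, 0 in S15 and 7.19 in S20, and at 0 to 71.3 with a median of 17.2 in the liver libraries, where the zeros belong to the shallow S13 and S22. With all libraries the log2 fold change against CD45-/EpCAM+ cells was -1.15 (SE 1.07, 95% confidence interval -3.41 to 1.10, limma adjusted p = 0.418). Without the 3 shallow libraries it was -1.75 (SE 0.56, limma adjusted p = 0.0240) and was called, as were the differences from CD45-/EpCAM- cells (-2.12, limma adjusted p = 0.0121) and CD45+ cells (-1.63, limma adjusted p = 0.0184). Against CD31+ and CD146+ cells the log2 fold changes with all libraries were -1.26 and 0.60 and did not pass (limma adjusted p = 0.613 and 0.778). At the depth of the shallow libraries a level of SLC51A as found in the deep ones could not have been seen.

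**Figure D2:**
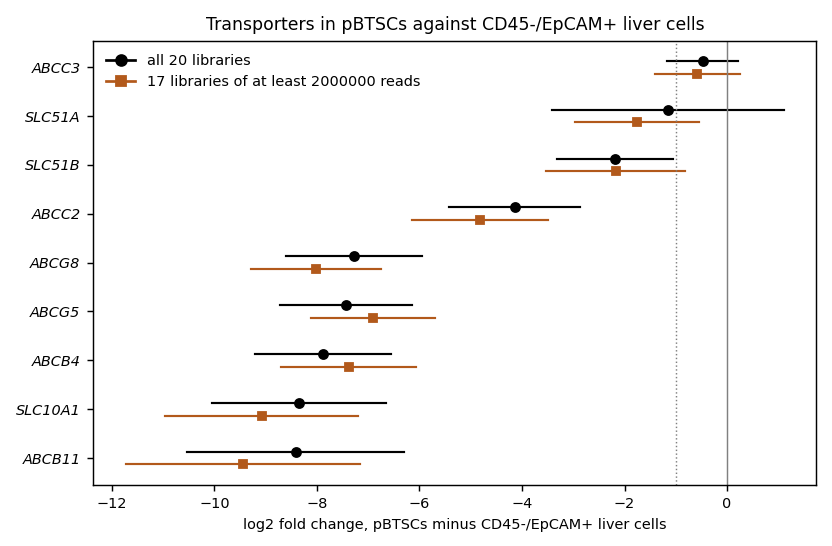
Log2 fold change of the 9 tested transporters, pBTSCs minus CD45-/EpCAM+ liver cells, with 95% confidence intervals from limma, using all 20 libraries (black) or the 17 with at least 2000000 reads (orange). The dotted line marks the fold change threshold of -1, and the interval of SLC51A reaches 0 only with all libraries.

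In pBTSCs the low values of SLC10A1 and ABCB11 were ordered like those of several hepatocyte markers, and those of the other hepatocyte carriers only in part. Albumin (ALB) was at 0.0279%, 0.0213% and 0.0214% of the liver median in S2, S7 and S11 and at 1.47% and 1.86% in S15 and S20. SLC10A1 was at 0.106%, 0.053% and 0.0474% in the first 3 and at 1.17% and 1.75% in the other 2, and ABCB11 was at 0%, 0.0387%, 0.0477%, 1.86% and 2.84% in the same order. The markers TF, TTR, APOA2, FGB and ASGR1 were likewise higher in S15 and S20 than in the other 3, whereas APOA1 was at 31.9% to 38.8% in all 5 and SERPINA1 was at 9.41% in S2, 9.73% in S15 and 9.61% in S20. ABCG8 was higher in S15, on 2 reads, and in S20. ABCB4 and ABCG5 were at 0% in S15 and at 3.12% and 1.95% in S20. ABCC2 was higher in S15 (17.4%) and S20 (7.59%) than in S2 (6.73%), S7 (1.42%) and S11 (3.04%), though S20 was close to S2. The summed level of the 8 hepatocyte markers was 28157, 29446 and 26184 in S2, S7 and S11 and 52988 and 70289 in S15 and S20. In bulk RNA fewer hepatocytes and less RNA per hepatocyte cannot be told apart, and the part of hepatocyte RNA in these values was not tested. Genotype, title number and the number of cells used separate the same pBTSC libraries and cannot be told apart. The study lists fewer cells for S15 and S20 than for the other pBTSC libraries. Its RNA integrity number, a score of RNA quality, was also lower in S2, S7 and S11 than in S20, with no value for S15.

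**Figure D3:**
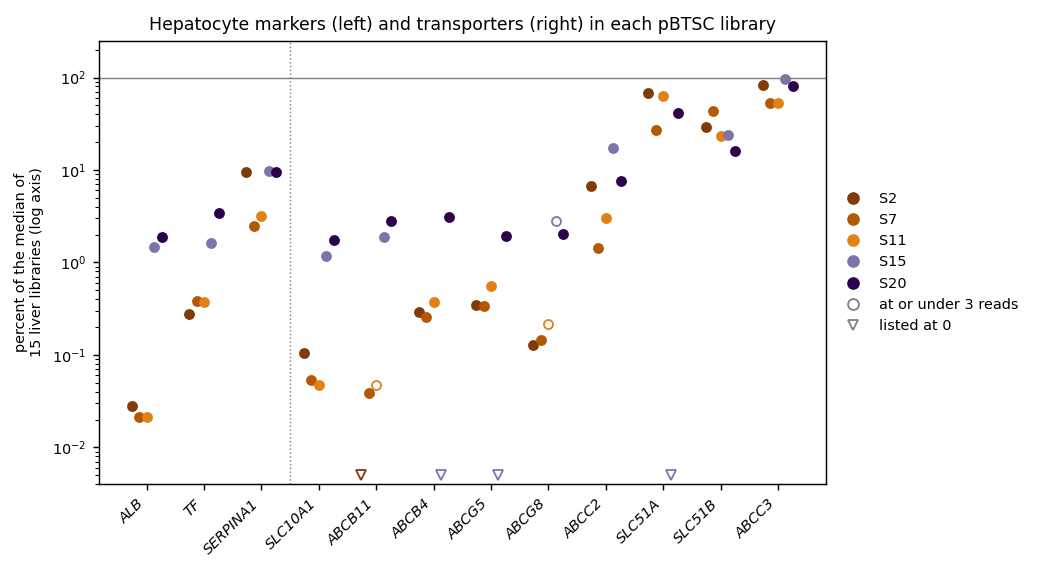
Level of 3 hepatocyte markers (left of the dotted line) and 9 transporters (right) in each pBTSC library, as a percent of the median of the 15 liver libraries (log axis; the solid line is 100%). S15 and S20 lie above S2, S7 and S11 for ALB, TF, SLC10A1, ABCB11 and ABCG8. They also do for SERPINA1 and ABCC2, where S20 is close to S2. ABCC3 lies between 52.5% and 95.8% in all 5 libraries.

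No transporter passed the test between the liver sorts compared. None of the 9 was called between CD45-/EpCAM+ and CD45-/EpCAM- cells, where limma called 2.03% of genes tested higher and 0.77% lower and 1 transporter, ABCC3, had an unadjusted p under 0.05 (log2 fold change 1.08, SE 0.43, adjusted p = 0.141). None was called between CD45-/EpCAM+ and CD45+ cells, where limma called 0% of genes in either direction and 0 transporters had an unadjusted p under 0.05. The mean level of SLC10A1 was 5649 in CD45-/EpCAM-, 5504 in CD31+, 5191 in CD146+, 5165 ± 2990 (SD, n = 4) in CD45-/EpCAM+ and 4249 ± 1658 (SD, n = 5) in CD45+ cells. The ranges of these neighbours overlapped, as did those of ABCB4, ABCG5 and ABCG8 between the CD45-/EpCAM+ and CD45+ cells.

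For ABCC2 the mean level was 3035 in CD146+, 2774 in CD31+, 1763 ± 607 (SD, n = 4) in CD45-/EpCAM+, 1610 ± 1032 (SD, n = 5) in CD45+ and 839 in CD45-/EpCAM- cells. ABCC3 had the same order, from 1156 and 1041 through 679 ± 183 (SD, n = 4) and 653 ± 315 (SD, n = 5) to 336. SLC51B had nearly the reverse order, with 822 in CD45-/EpCAM-, 474 ± 261 (SD, n = 4) in CD45-/EpCAM+, 361 ± 269 (SD, n = 5) in CD45+, 132 in CD31+ and 128 in CD146+ cells. Neighbours in these orders overlapped, except that both CD45-/EpCAM- libraries (815 and 828) held more SLC51B than any CD45-/EpCAM+ library (162 to 777). The CD31+ and CD146+ sorts occur only among the libraries with title numbers of 16 and above, and the CD45-/EpCAM- sort only among those up to 14.

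The liver libraries fell apart by title number for these 3 genes. SLC51B was at 346 to 828 in the 8 liver libraries titled S3 to S14 and at 64.6 to 193 in the 7 titled S16 to S23. ABCC2 was at 485 to 1800 in the first and 2053 to 4018 in the second, and ABCC3 at 212 to 668 and 852 to 1461. Of all genes tested, 7.06% did not overlap and were higher in the libraries titled S16 to S23, and 7.97% did not overlap and were lower. The other 7 transporters overlapped between the title ranges. The summed hepatocyte markers were 932781 to 2076610 in the first range and 1901100 to 2604970 in the second, and the sum of the 3 erythroid markers with a row was 554 to 34914 in the first and 53.4 to 171 in the second. What the numbers stand for is not given in the sources used here, and the split was made with earlier results of these data known, so no test is given.

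**Figure D4:**
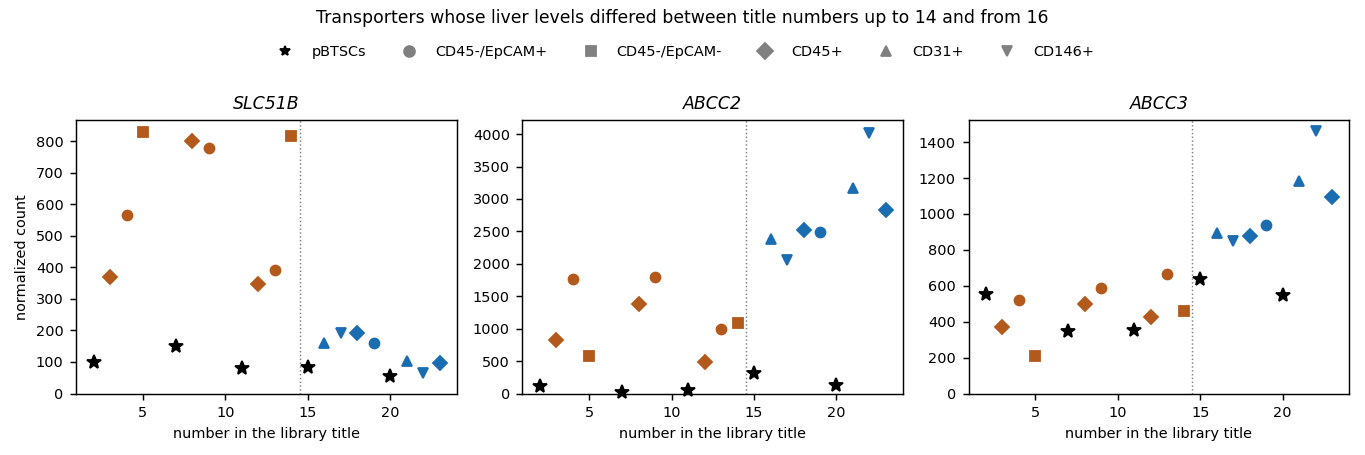
Normalized counts of SLC51B, ABCC2 and ABCC3 against the number in the library title, with black stars for pBTSCs and other symbols for the liver sorts (orange up to 14, blue from 16). In the liver libraries SLC51B is lower, and ABCC2 and ABCC3 are higher, to the right of the dotted line, with no overlap.

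Within the title ranges the comparison with pBTSCs changed for ABCC3, and for SLC51B only through the shallow library S22. ABCC3 in S2, S7 and S11 (351 to 557) overlapped the liver libraries of the same range (212 to 668). In S15 and S20 (640 and 547) it lay under those of theirs (852 to 1461). SLC51B in S2, S7 and S11 (80.8 to 149) lay under the liver libraries of its range (346 to 828). In S15 and S20 (82.8 and 56.1) it overlapped theirs (64.6 to 193) only through S22, whose value of 64.6 lies under that library's floor. The next lowest liver value of that range was 98.0, in S23, and lay above both. The value of S15 rested on about 6.6 reads. The 6 hepatocyte carriers lay under the liver libraries in both ranges. With the title range as a covariate, the log2 fold change of SLC51B was -1.98 against CD45-/EpCAM+ cells (limma adjusted p = 6.8e-04) and -1.67 against CD45+ cells (limma adjusted p = 0.00172), and that of ABCC3 was -0.60 (limma adjusted p = 0.0565) and -0.33 (limma adjusted p = 0.275).

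A ratio of partner genes within a library depends little on how that library was scaled where both genes lie far above the pseudocount of 1, as ABCC2 and ABCC3 did, but not where a partner has few reads, as for ABCG5, ABCG8 and SLC51A in pBTSCs. The log2 ratio of ABCC3 to ABCC2, a basolateral to an apical pump of the same family, was 2.19 in S2, 3.73 in S7, 2.67 in S11, 1.03 in S15 and 1.99 in S20. It was between -1.75 and -0.19 in the 15 liver libraries, so the groups did not overlap. The pBTSCs averaged 2.32 ± 0.99 (SD, n = 5) against -1.34 ± 0.52 (SD, n = 4) for CD45-/EpCAM+ cells, a difference of 3.66 (exact two-sided permutation test, p = 0.0159, the smallest that these group sizes allow, adjusted p = 0.0476 over 6 ratio tests). Against CD45+ cells, at -1.14 ± 0.55 (SD, n = 5), the difference was 3.46 (exact two-sided permutation test, p = 0.00794, also the smallest possible, adjusted p = 0.0476). With any single library left out the first difference no longer passed (exact permutation tests, adjusted p = 0.0857 to 0.107), and with any pBTSC library left out neither did the second (adjusted p = 0.0857, exact permutation test), as fewer libraries raise the smallest p. The ratio differed little between the title ranges of the liver libraries, with medians of -1.35 and -1.41, although both genes did. These ratios compare changes and not amounts, since the values are not scaled to gene length.

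The chains of the 2 heteromeric carriers gave no difference in ratio that passed the test. The log2 ratio of SLC51A to SLC51B averaged -3.94 ± 1.59 (SD, n = 5) in pBTSCs, -4.97 ± 2.47 (SD, n = 4) in CD45-/EpCAM+ cells and -3.35 ± 0.32 (SD, n = 5) in CD45+ cells (exact permutation tests, adjusted p = 0.738 for both). The ratio of ABCG5 to ABCG8 averaged -0.42 ± 2.43 (SD, n = 5), -0.26 ± 0.73 (SD, n = 4) and -0.17 ± 0.65 (SD, n = 5) in the same groups (exact permutation tests, adjusted p = 0.968 for both). S15, where a chain was at 0, pulled both means down in pBTSCs. Without it and the other shallow libraries the difference of the ABCG5 to ABCG8 ratio was 1.10 against CD45-/EpCAM+ and 0.82 against CD45+ cells and again did not pass (exact permutation tests, adjusted p = 0.171 and 0.159).

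**Figure D5:**
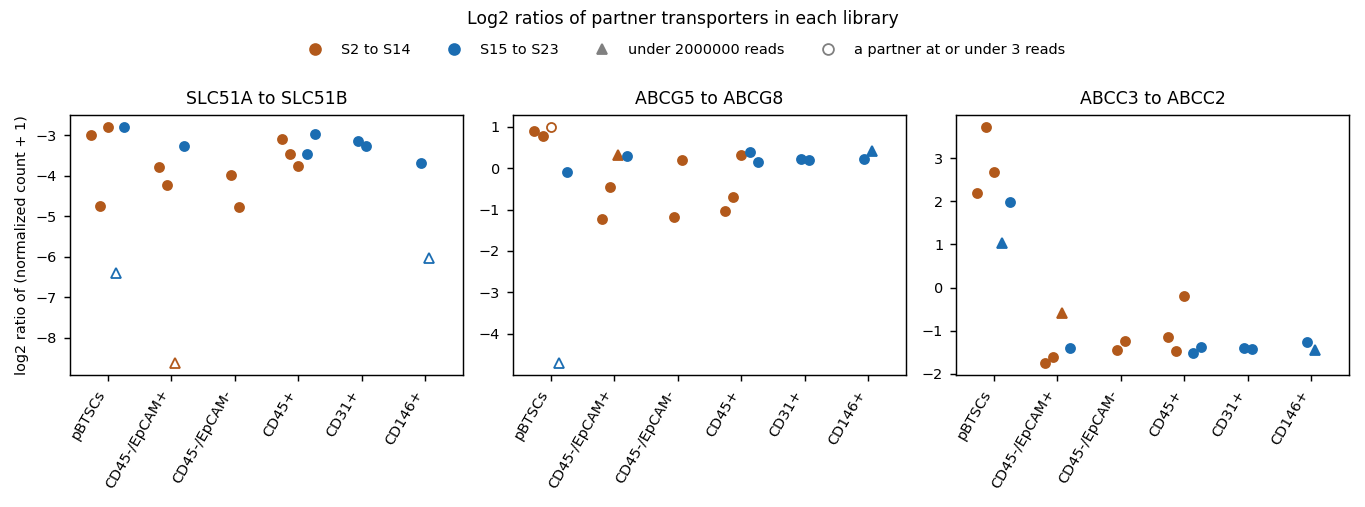
Log2 ratio of normalized count + 1 of partner transporters in each library, by sorted group, with the same colours and symbols as in the plot of levels; open symbols have a partner at or under 3 reads. The ratio of ABCC3 to ABCC2 is above 1 in all 5 pBTSC libraries and below 0 in all 15 liver libraries.

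Other genes of bile acid handling were described from 3 lists. Of 17 further carriers and helpers, 13 were tested against CD45-/EpCAM+ cells, 3 were higher and 5 lower in pBTSCs, and their median log2 fold change was -0.82. The lower ones included FABP1, the liver fatty acid binding protein (-8.74), the organic anion carrier SLC22A7 (-8.39), and ABCC6 (-4.51). The 3 higher ones were the export pumps ABCG2 (1.56, SE 0.27, limma adjusted p = 2.4e-04) and ABCC4 (1.23, SE 0.20, limma adjusted p = 1.2e-04) and the phospholipid flippase ATP8B1 (1.23, SE 0.26, limma adjusted p = 0.00126), named after their values were seen. ABCG2 was at 1999 to 3279 normalized counts in pBTSCs and at 461 to 1447 in CD45-/EpCAM+ cells. ABCC4, which like ABCC3 can export bile acids basolaterally, was at 962 to 1929 and 465 to 712.

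Of 13 genes of bile acid synthesis and conjugation, 10 were tested, 9 were lower and none was higher, with a median log2 fold change of -2.0. The bile acid CoA ligase SLC27A5 (-7.71) and the reductase AKR1D1 (-7.01) differed most, followed by the hydroxylase CYP27A1 (-2.88) and the oxidase ACOX2 (-2.68). The gene that did not pass was CYP7A1, the rate-limiting enzyme of the classical pathway (-1.98, limma adjusted p = 0.189), chosen here after its value was seen. It was at 0.49 to 29.3 normalized counts in pBTSCs and at 9.34 to 183 in CD45-/EpCAM+ cells.

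Of 13 genes that sense bile acids or control this system, 12 were tested, 11 were lower and none was higher, with a median log2 fold change of -2.47. NR0B2 (SHP), the repressor induced by the bile acid receptor, was lower by -5.71 and NR1H4 (FXR), that receptor, by -4.73. NR1H4 was at 26.0 to 101 normalized counts in pBTSCs and at 964 to 1686 in CD45-/EpCAM+ cells. KLB, the co-receptor for the ileal hormone FGF19, was lower by -4.61, and the membrane receptor GPBAR1, likewise chosen after its value was seen, did not pass (-0.70, limma adjusted p = 0.159). All 8 hepatocyte markers were also called lower in this comparison, with a median of -7.85.

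The genes whose levels followed those of each transporter most closely were taken over the 17 deeper libraries, 4 of pBTSCs and 13 of liver, as Pearson correlations of log2 values. For the hepatocyte carriers the difference between these 2 sets of libraries makes up most of the correlation, so the values are a description only. ABCB11 was closest to KLKB1 (r = 0.999), SLC10A1 to CPB2 and SERPIND1 (both 0.996) and ABCB4 to another member, ABCG8 (0.998), all but ABCG8 genes of plasma proteins made in the liver. ABCG5 was closest to RGN (0.992) and ABCC2 to the peroxisomal oxidase PIPOX (0.991). ABCC3 had the interferon-linked receptor TLR3 (0.949), SLC51B TMEM214 (0.955) and SLC51A PUDP (0.944) as its nearest gene. Among the 13 deeper liver libraries alone, SLC51A correlated with SLC51B at r = 0.916, ABCC2 with ABCC3 at 0.908 and SLC51B with ABCC3 at -0.828, where the title ranges that separate SLC51B and ABCC3 contribute.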

How the data were processed

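Poly(A) RNA of 20 pig cell preparations was sequenced from stranded libraries. The authors deposited 1 table of normalized counts per gene, a signal that is never negative. STAR, Salmon and DESeq2 are named in the submitters' processing notes, without versions or roles, and the genome build is not given in the sources used here. Low values lay near multiples of the value of 1 read, but only 61.0% to 81.7% of them came within 0.05 reads of a whole number, so read counts were not recovered and no count test was run. 0 of the columns with sample values stayed unmapped.

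Groups were taken from the labelled cell type. The study's methods name 5 pig donors, fewer than the 15 liver libraries, but do not assign the liver libraries to them. If the liver cells came from these donors, some liver libraries share an animal. Nothing was paired, and p-values measure the spread between these libraries, which may in part be technical. Of the libraries of the same group, the closest pair still differed by 1.67 times the counting noise, and each was counted as 1 sample.

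log2(normalized count + 1) was computed and fitted with limma 3.58.1 in R 4.3.3 (6 groups, eBayes with trend) over 15576 genes that reached a normalized count of 10 in 2 or more libraries, with Benjamini-Hochberg adjustment over all of them. A gene was called where the adjusted p-value fell below 0.05 and the log2 fold change exceeded 1 in size. Fold changes on this scale tend to understate the change of genes with low values. The value of 0 of ABCB4 and ABCG5 in the shallow S15 can act the other way. Without the 3 shallow libraries their log2 fold changes against CD45-/EpCAM+ cells were smaller in size, at -7.38 for ABCB4 and -6.91 for ABCG5. The procedure was tested on simulated data. Ratios of 2 genes were compared by exact permutation (scipy 1.17.1). The files hold no gene lengths, so levels of different genes were not compared. Floors of 3 reads cover counting error only, whereas the confidence intervals from limma rest on the spread between libraries.

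The members and gene lists were chosen with earlier results of these data known. All 10 members are named in every comparison, of each pathway list the 4 called genes with the largest absolute log2 fold change (some are not reported here), and for each member at most the 3 genes with the highest correlation. Of the 85 listed pathway and marker symbols 79 had a row. Alternatives changed the pseudocount, the filter, the scaling, the trend, weights, the groups fitted, the title range as a covariate, and the libraries included. No sequence or coordinate is given.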

Additional observations from a re-analysis of the deposited data

Results flagged for a closer look

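In groups of 4 to 10 libraries, 36 sets of log2 values were searched for 1 library standing far from the rest. Levels entered as log2(normalized count + 1). Dixon's ratio, the gap to the nearest value divided by the whole range, was used, and 3 such cases were found. Chance gives about 1 in 20. ABCB4 in CD45+ cells was lowest in S12, at 362 normalized counts against 722 to 872 in the other 4 libraries (ratio 0.7857 on the log2 values). The log2 ratio of ABCC3 to ABCC2 in CD45+ cells was highest in the same library, at -0.19 (ratio 0.7256). The log2 ratio of ABCG5 to ABCG8 in pBTSCs was lowest in S15, at -4.71 (ratio 0.8095), the shallow library with 0 reads of ABCG5.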

How the results depend on the processing

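The number of transporters called lower in pBTSCs stayed between 7 and 8 against CD45-/EpCAM+ and CD45-/EpCAM- cells, 6 and 8 against CD45+ cells and 6 and 7 against CD31+ and CD146+ cells under the alternatives run. Equal library totals moved the median log2 fold change of all genes by 0.25 to 0.48 in these comparisons, and 1 transporter, ABCC3, was then called higher against CD45-/EpCAM- cells (1.08, limma adjusted p = 0.0465). Against CD146+ cells SLC51A turned to -0.72 without the 3 shallow libraries, and leaving out single libraries gave -1.35 to 2.55 for SLC51A and -1.10 to 0.46 for SLC51B. None of these values passed the test.

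The difference of the ABCC3 to ABCC2 log2 ratio between pBTSCs and liver cells was 4.24 (CD45-/EpCAM+) and 3.79 (CD45+) without the shallow libraries, and 3.31 to 3.99 and 3.11 to 3.79 with single libraries left out. Against CD45-/EpCAM+ cells it no longer passed in any of these cases (exact permutation tests, adjusted p = 0.0857 to 0.159), and against CD45+ cells it did not pass without the shallow libraries (adjusted p = 0.0952, exact permutation test) or without any 1 pBTSC library (0.0857), but still passed without any 1 CD45+ library. Fewer libraries also raise the smallest p possible. The SLC51A to SLC51B difference against CD45+ cells became 0.34 with a pseudocount of 10 and 0.017 without the shallow libraries, and ranged from -0.88 to 0.017 with single libraries left out (-0.19 to 1.64 against CD45-/EpCAM+ cells). The ABCG5 to ABCG8 difference became 0.033 with a pseudocount of 10 against CD45-/EpCAM+ cells, 1.10 and 0.82 without the shallow libraries, and -0.51 to 0.91 and -0.60 to 0.82 with single libraries left out. It turned from lower to higher in pBTSCs without S15 in both comparisons, and without S13 or S19 against CD45-/EpCAM+ cells (0.033 and 0.030). The cause was not tested. No paired analysis was possible because the labels give the libraries no replicate numbers, and no source used here says that neighbouring title numbers mark 1 animal.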
